A study of Mus musculus with 2 samples.

Results

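Claudins are the membrane proteins whose extracellular loops meet between neighbouring cells and set which ions and solutes pass through the tight junction. Each stretch of the renal tubule carries its own combination, which makes the proximal tubule leaky to sodium and water, the thick ascending limb selective for sodium, calcium or magnesium, and the collecting duct tight. Endothelium carries a separate claudin, Cldn5, best known from the barrier of brain vessels.

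The 10 genes described here, Cldn1, Cldn2, Cldn3, Cldn4, Cldn5, Cldn7, Cldn8, Cldn10, Cldn16 and Cldn19, were taken by symbol from the 32 claudin genes among the 32285 genes counted. They were measured by single-cell RNA-Seq in the postischemic left kidney of 1 Cre- mouse and of 1 mouse called PHDTiEC, which carries Cdh5-CreERT2 with homozygous floxed alleles of all 3 prolyl hydroxylase genes (Phd1f/f, Phd2f/f and Phd3f/f). This genotype is built to inactivate the HIF prolyl hydroxylases PHD1, PHD2 and PHD3 in endothelium, where the Cdh5 promoter drives a tamoxifen-inducible Cre, and the Cre- mouse, a littermate control per the study's text, lacks the Cre. Per the study's methods, mice of 8 to 10 weeks underwent 25 minutes of unilateral renal artery clamping, then received 4 intraperitoneal injections of tamoxifen at 3 mg per mouse, and kidneys were dissociated on day 14. No kidney without ischemia and no kidney without tamoxifen enters the comparison, and with 1 mouse per genotype no test between genotypes was possible. All intervals given are 95% intervals for counting error alone.

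After filtering, 8548 Cre- barcodes and 9309 PHDTiEC barcodes remained, with medians of 7500 and 7898 unique molecular identifiers (UMIs, each standing for 1 captured transcript). Levels are UMIs of the gene per 1000000 UMIs (CPM), summed over all cells of a class. Both libraries shared 28 barcode sequences, against 11.7 for barcodes drawn at random from the list, and the cause was not tested. The claudin genes were left out of the clustering and of the marker lists, so the class in which a claudin is high was not built in. Cell classes carry the suffix -like because they were named from markers, and clusters that could not be named are given by number. The CD-like class (collecting duct) held as many connecting tubule markers as CD markers among its leading genes, and IC denotes intercalated cells. PT stands for proximal tubule, TAL for thick ascending limb and DCT for distal convoluted tubule. The mREC-like class takes the study's name for medullary renal endothelial cells. Its marker list here was arterial, with Sox17, Gja4 and Jam2 among others, and does not place the cells in the medulla. The 3 floxed genes did not check the genotype label. In mREC-like cells, Egln1, which encodes PHD2, stood at 66.8 CPM (Cre-) and at 231 CPM in the library labelled PHDTiEC. Egln3, which encodes PHD3 and is itself induced by HIF, stood at 21.9 and 206 CPM, and Egln2, which encodes PHD1, at 43.8 and 32.8 CPM. Counts per gene cannot tell a transcript that lacks the floxed exon from an intact one.

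Promoter sequence is shown for the 3 members on which the results below turn, because HIF binds DNA at a short core and the genotype was made to stabilize HIF. Each run holds the 250 bases before a RefSeq start site (build GRCm38.p6), 5′ to 3′ on the strand of the gene, and capitals mark the HIF core, ACGTG or GCGTG, on either strand. For Cldn10, both start sites are shown because their transcripts end in the same last exon.
Cldn5, chr16:18776597-18776846, plus strand: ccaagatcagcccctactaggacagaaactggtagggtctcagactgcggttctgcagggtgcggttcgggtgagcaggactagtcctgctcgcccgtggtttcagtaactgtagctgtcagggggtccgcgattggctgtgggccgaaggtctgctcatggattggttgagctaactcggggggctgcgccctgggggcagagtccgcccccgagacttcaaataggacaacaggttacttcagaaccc
Cldn7, chr11:69964529-69964778, plus strand: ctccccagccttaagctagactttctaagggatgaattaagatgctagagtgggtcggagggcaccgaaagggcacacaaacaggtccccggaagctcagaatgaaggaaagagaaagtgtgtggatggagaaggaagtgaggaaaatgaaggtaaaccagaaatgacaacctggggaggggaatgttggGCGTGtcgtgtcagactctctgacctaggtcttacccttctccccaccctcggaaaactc
Cldn10 upstream start, chr14:118787621-118787870, plus strand: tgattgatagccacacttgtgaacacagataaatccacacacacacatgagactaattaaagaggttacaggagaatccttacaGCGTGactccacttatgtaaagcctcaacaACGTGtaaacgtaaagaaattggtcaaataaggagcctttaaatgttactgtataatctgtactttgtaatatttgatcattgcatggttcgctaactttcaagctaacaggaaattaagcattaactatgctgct
Cldn10 downstream start, chr14:118854700-118854949, plus strand: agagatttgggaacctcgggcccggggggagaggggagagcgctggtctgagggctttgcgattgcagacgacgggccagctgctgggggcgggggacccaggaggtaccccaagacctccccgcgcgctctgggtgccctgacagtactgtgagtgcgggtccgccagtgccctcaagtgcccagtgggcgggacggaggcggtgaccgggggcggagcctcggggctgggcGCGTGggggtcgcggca
The window of Cldn5 held no HIF core. The window shown for Cldn7 held 1 core, the upstream start of Cldn10 held 2 and the downstream start 1. Another Cldn7 start (chr11:69965171-69965420), not shown, also held 1 core. The table of promoters had entries for 9 of the 10 members, 12 start sites in all, of which 6 held a core. Among all 32851 promoters of the same length 38.6% held 1 or more, so these matches describe the letters alone and say nothing of HIF binding.

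Along the nephron, the members fell into a proximal, a thick ascending limb and a distal set, which the plot of levels by cell class shows for both libraries. Levels of different genes are not compared with each other, since capture of the 3′ end differs between transcripts. Of 270 combinations of a member and a class, 139 had at least 50 UMIs over both libraries. Of these, 32 were at least 1.5-fold higher and 22 at least 1.5-fold lower in the library labelled PHDTiEC. Over all genes in the same classes, 5.2% of combinations were higher and 3.64% lower by that size. Most of the 54 combinations were of low level. Among the 45 combinations with at least 100 CPM in both libraries, a set chosen after the values were seen, 5 were higher and 2 lower. The share of all genes past 1.5-fold at that cut was not computed, so these counts have no background of their own. The 5 were Cldn7 in 4 classes and Cldn4 in urothelial-like cells (247 and 390 CPM, 25 and 34 cells), and the 2 were Cldn5 in endothelial groups.

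**Figure D1:**
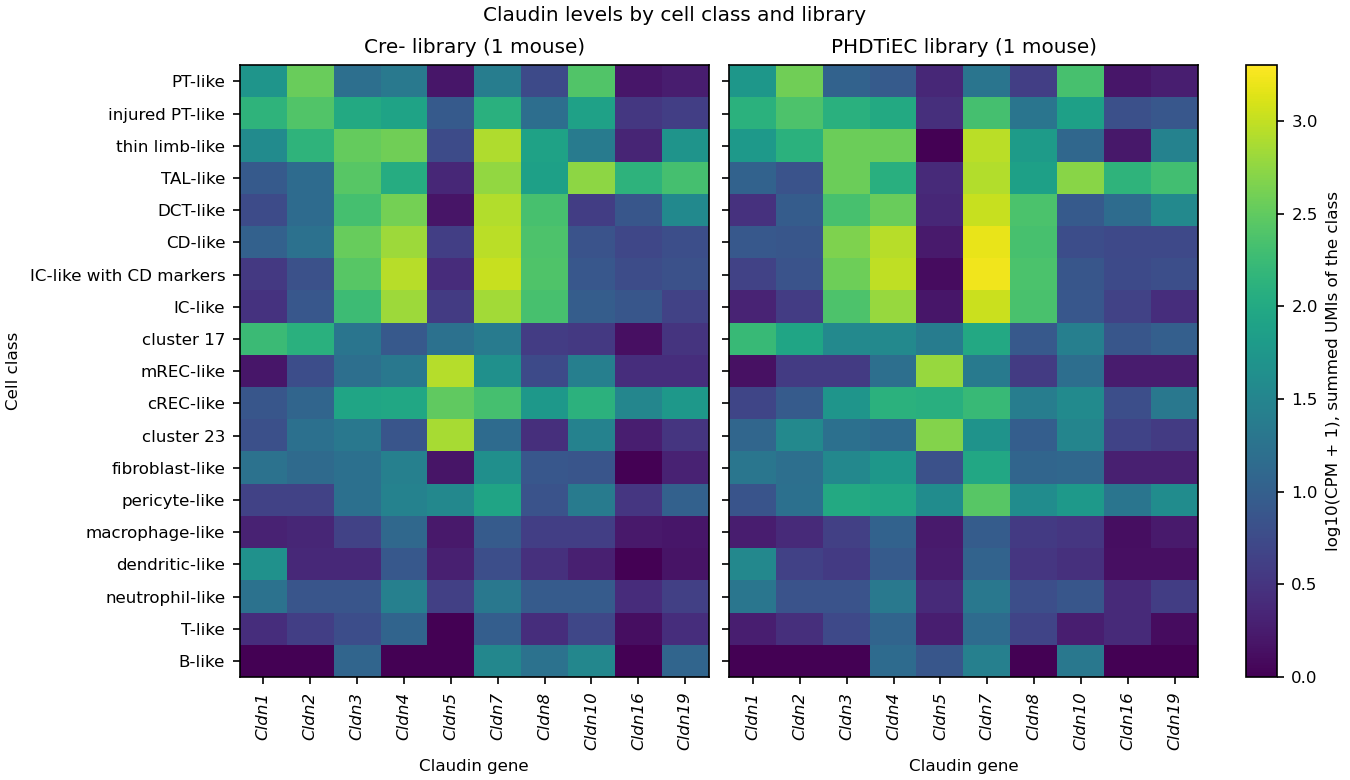
Levels of the 10 claudins in 19 cell classes, as log10 of CPM plus 1 (colour), with the Cre- library on the left and the PHDTiEC library on the right, 1 mouse each. Cldn2 is brightest in PT-like cells (352 and 385 CPM), Cldn16 and Cldn19 in TAL-like cells, Cldn4, Cldn7 and Cldn8 from the DCT-like to the IC-like rows, and Cldn5 in the 3 endothelial rows; colours are to be compared down a column, within 1 gene.

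The proximal set held Cldn2, Cldn10 and Cldn1. Cldn2 (ENSMUSG00000047230, chromosome X, 139800828 to 139811386), the sodium and water pore of the proximal tubule, reached 352 CPM in Cre- and 385 CPM in PHDTiEC PT-like cells (log2 ratio 0.13). In injured PT-like cells it stood at 250 and 236 CPM, in thin limb-like cells at 141 and 127 CPM. PT-like cells held 48.1% (Cre-) and 59.4% (PHDTiEC) of all Cldn2 UMIs. Its level therefore declined from PT-like to injured PT-like to thin limb-like cells in the same order in both mice, and none of the 3 classes differed between libraries by 1.5-fold. The non-claudin gene with the most similar pattern over the 54 sums of a class and a library was Folr1, the folate receptor of the proximal brush border (Pearson r = 0.951).

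Cldn10 (ENSMUSG00000022132, chromosome 14, 118787908 to 118875489) makes an anion-selective and a cation-selective isoform from start sites 66824 bases apart. The isoforms share the start of their last exon at 118874192, so the 3′ counts cannot separate them. PT-like cells carried 252 and 220 CPM, injured PT-like cells 75.9 and 74.5 CPM. The level in injured PT-like cells was thus below that in PT-like cells in both libraries. Slc9a3, the apical sodium and proton exchanger of these segments, had the pattern most like Cldn10 (r = 0.871). For Cldn1 (ENSMUSG00000022512, chromosome 16, 26356642 to 26371841), a sealing claudin known from parietal epithelium and skin, the order was the opposite. It stood at 52 and 54.7 CPM in PT-like cells and at 140 and 128 CPM in injured PT-like cells. Its highest level, 175 and 165 CPM, was in cluster 17, led by Stc2, Igfbp2 and Foxd1 among others, where Cldn2 was also present at 123 and 86.4 CPM. The gene most like Cldn1 over the 54 sums was Gxylt2 (r = 0.884).

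Cldn2 varied little between single cells beyond counting error. In PT-like cells thinned to 10000 UMIs, 4.9% of Cre- cells and 5.24% of PHDTiEC cells held no Cldn2 UMI, against 3.09% and 2.42% for Poisson counts of the same mean. For Cldn10 in these cells, 13.8% and 14.6% held none, against 7.39% and 10.8%. In PT-like cells thinned to 3000 UMIs, Cldn2 and Cldn10 occurred together in 30.1% and 31.1% of cells, and the product of their separate shares was 30.5% and 30.3%. Cldn1 and Cldn2 in injured PT-like cells occurred together in 15.9% and 14% of cells, against products of 16.4% and 17.3%.

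The thick ascending limb set held Cldn10, Cldn16 and Cldn19, with Cldn3 and Cldn7. Cldn16 (ENSMUSG00000038148, chromosome 16, 26463135 to 26482765) and Cldn19 (ENSMUSG00000066058, chromosome 4, 119255414 to 119262438) form together the channel through which calcium and magnesium are reabsorbed, and mutation of either causes renal magnesium wasting. Cldn16 reached 133 CPM in Cre- and 140 CPM in PHDTiEC TAL-like cells (log2 ratio 0.07, interval -0.03 to 0.17). TAL-like cells held 81.8% and 80.1% of its UMIs. Cldn19 stood at 210 and 197 CPM there, with 71.6% and 74.5% of its UMIs, and at 36.1 and 34.3 CPM in DCT-like cells. Cldn10 was at 545 and 519 CPM (log2 ratio -0.07). None of the 3 differed by 1.5-fold between the libraries in TAL-like cells. The genes most like Cldn16 and Cldn19 over the 54 sums were Ak7 (r = 0.94) and Rps6ka6 (r = 0.928). Tmem207, the next coding gene beyond Cldn16 on chromosome 16, ranked second for Cldn16 (r = 0.915).

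Mouse thick ascending limb is known as a mosaic in which Cldn10 and the pair Cldn16 and Cldn19 line junctions of different cells. Transcripts were therefore counted cell by cell. In TAL-like cells thinned to 3000 UMIs, Cldn10 was found in 65.2% of 394 Cre- cells and 62.2% of 405 PHDTiEC cells. Cldn16 was found in 24.4% and 30.1%, Cldn19 in 43.7% and 38.3%. B-like cells, which should lack these genes, gave a Cldn10 UMI in 5 of 70 Cre- cells and 3 of 49 PHDTiEC cells, at median depths of 2009 and 2438 UMIs. Cldn10 together with Cldn16 or Cldn19 occurred in 36.8% of Cre- cells against a product of separate shares of 37.1%. In the library labelled PHDTiEC, 39% of cells held both against a product of 36%. Taken alone, Cldn16 went with fewer Cldn10 cells in 1 library only. Cldn10 was found in 53.1% (42.7 to 63.4) of Cre- cells with a Cldn16 UMI and 69.1% (63.5 to 74.3) of those without, but in 62.3% and 62.2% of PHDTiEC cells. With Cldn19, Cldn10 was found more often in the library labelled PHDTiEC, in 72.9% (65.2 to 79.7) of cells with and 55.6% (49.2 to 61.9) without, and in 69.2% and 62.2% of Cre- cells.

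A greater depth gave another view of the same cells. Thinned to 10000 UMIs, 53 of 318 Cre- TAL-like cells (16.7%) held no Cldn10 UMI, although the mean was 5.78 UMIs and a Poisson count of that mean would leave 0.309%. In the library labelled PHDTiEC, 46 of 324 cells (14.2%) held none at a mean of 5.15 UMIs, with 0.577% from a Poisson count. The plot of cells without a UMI sets these beside the other members, most of which lay closer to the Poisson value. Such an excess was not particular to Cldn10. For Cldn3 in TAL-like cells, 22% (Cre-) and 13.3% (PHDTiEC) held none, against 6.48% and 3.2% from a Poisson count. Cldn16 was higher in the cells without a Cldn10 UMI than in the rest, at 191 CPM (155 to 232) against 113 CPM (100 to 126) in the Cre- library and 176 CPM (140 to 219) against 131 CPM (118 to 145) in the other. Cldn19 did not follow it, at 191 against 210 CPM and at 135 against 184 CPM. Slc12a1, the sodium, potassium and chloride cotransporter that defines this segment, stood at 1653 and 1628 CPM in the cells without a Cldn10 UMI and at 2123 and 2640 CPM in the others. Umod, the uromodulin gene of the same segment, stood at 9840 against 10479 CPM in the Cre- library but at 3422 against 8856 CPM in the other, and Kcnj1, its apical potassium channel, at 160 against 177 CPM and at 120 against 196 CPM. The markers were thus present in the cells without a Cldn10 UMI, with Slc12a1 and Umod lower in both libraries and the intervals of Kcnj1 overlapping in the Cre- library. Pth1r, the parathyroid hormone receptor, was higher in cells without a Cldn10 UMI (623 against 346 CPM, and 337 against 258 CPM). Mmp7, a secreted protease, was lower in them (39.6 against 237 CPM, and 170 against 246 CPM). Egf, which encodes a growth factor made in the distal nephron, went opposite ways, at 470 against 109 CPM in the Cre- library and 32.6 against 149 CPM in the library labelled PHDTiEC. Cells were split by Cldn10 here, and the depth of 10000 and these companion genes were chosen after the data were seen.

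**Figure D2:**
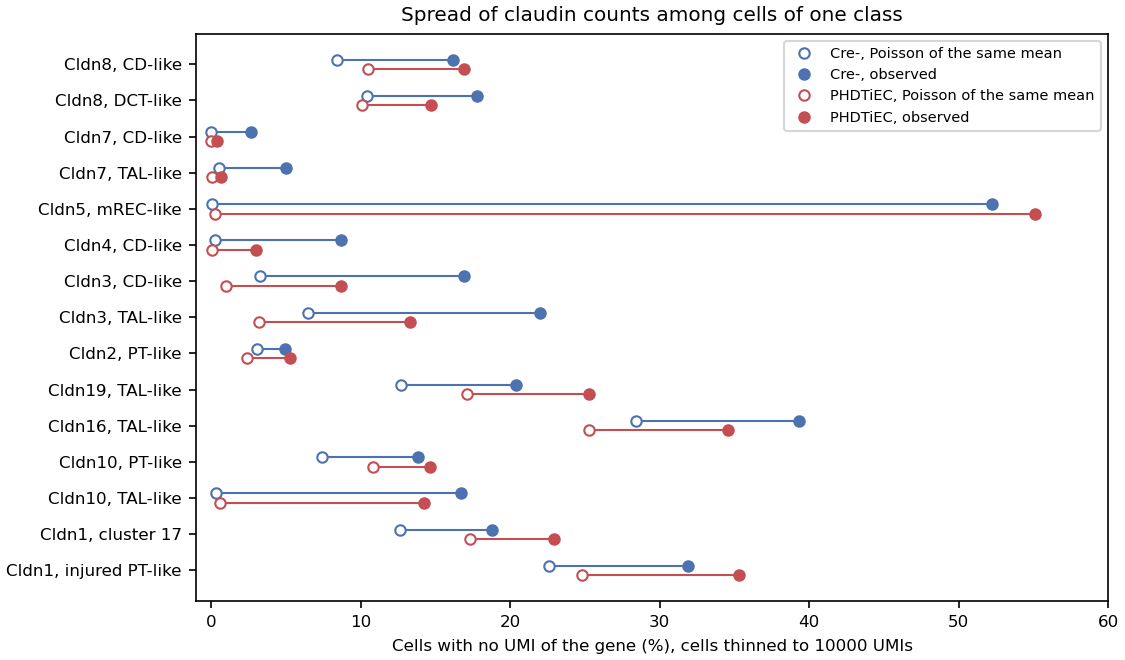
Share of cells with no UMI of a claudin (percent, cells thinned to 10000 UMIs) for each member in a class where it is high; filled points are observed shares, open points the share a Poisson count of the same mean would leave, blue Cre- and red PHDTiEC. Cldn5 in mREC-like cells (52.2% and 55.1% observed) and Cldn10 in TAL-like cells (16.7% and 14.2%) lie farthest from their open points.

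The distal set held Cldn3, Cldn4, Cldn7 and Cldn8, and Cldn7 gave 4 of the 5 higher combinations named above. Cldn7 (ENSMUSG00000018569, chromosome 11, 69964779 to 69967885) is found at the junction and along the lateral membrane of distal tubule cells and limits sodium and chloride leak. In CD-like cells it stood at 912 CPM (Cre-) and at 1568 CPM in the library labelled PHDTiEC, a log2 ratio of 0.78 (0.74 to 0.82). IC-like cells with CD markers held 1055 and 1696 CPM (0.68, 0.66 to 0.71). IC-like cells without them held 701 and 1097 CPM (0.64, 0.55 to 0.74). Smaller differences of the same sign were found in TAL-like cells, at 578 and 839 CPM (0.54), in DCT-like cells, at 841 and 1056 CPM (0.33), and in thin limb-like cells, at 802 and 907 CPM (0.18). Injured PT-like cells held 122 and 211 CPM (0.79, 0.68 to 0.90). Marker lists of distal segments were also higher in injured PT-like cells, TAL at 203 and 393, DCT at 501 and 860 and CD at 184 and 395 CPM. The part of this load in their Cldn7 value was not tested. Cldn7 was thus higher in the library labelled PHDTiEC in each of these 7 classes, past 1.5-fold in 4 of them. Other classes went both ways. Cldn7 was also at least 1.5-fold higher in cluster 23 (13.1 and 48.3 CPM) and cluster 2 (3.75 and 8.3 CPM). The same held in cluster 17 (22.7 and 96.1 CPM) and in the pericyte-like and fibroblast-like cells described below. It was lower by that size in mREC-like cells (44.4 and 21 CPM) and cluster 19 (19.9 and 9.25 CPM). Cldn7 was lower in cluster 25, led by cell cycle genes such as Cenpf and Top2a, at 658 and 504 CPM (-0.39, -0.50 to -0.27), in urothelial-like cells, at 557 and 469 CPM (-0.25), and in PT-like cells, at 24.3 and 18.3 CPM.

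Free RNA held Cldn7 as well. Barcodes under 100 UMIs, which stand for RNA outside cells, carried 248 CPM in the Cre- library and 352 CPM in the other. Subtracting that profile left all 7 log2 ratios within their counting intervals. Marker lists set how much was subtracted, 1.74% and 2.17% of the UMIs in CD-like cells and 6.58% and 5.6% in IC-like cells. So small a share could move these ratios little, and the part of free RNA in them was not tested otherwise. Of the 40 other junction genes, 25 were tested in CD-like and 29 in TAL-like cells. Their medians of the log2 ratio were 0.25 and 0.16, against 0.05 and 0.1 for all genes, so Cldn7 lay above both. The share of all genes at least 1.5-fold higher was 4.14% in CD-like cells, 2.91% in IC-like cells with CD markers, 5.21% in IC-like cells and 5.19% in injured PT-like cells. In CD-like cells, 1 of 9 members tested was higher and 1 lower, with a median log2 ratio of -0.15. That median includes Cldn1, Cldn2, Cldn10, Cldn16 and Cldn19 at low levels, and Cldn2 was the 1 lower (15.9 and 6.65 CPM). Of the distal set, Cldn3 and Cldn4 were higher there by less than 1.5-fold (0.43 each), and Cldn8 was at -0.15. Epcam, which encodes an adhesion protein that binds claudin 7, was the gene most like Cldn7 over the 54 sums (r = 0.98). In IC-like cells with CD markers, the log2 ratio stayed between 0.65 and 0.71 under the alternatives run. The difference no longer reached 1.5-fold in CD-like cells at clustering resolution 0.4 (0.57), in IC-like cells with 30 principal components (0.52) or when cells weighed equally (0.51), and in injured PT-like cells when each barcode was placed by its own markers (0.5).

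**Figure D3:**
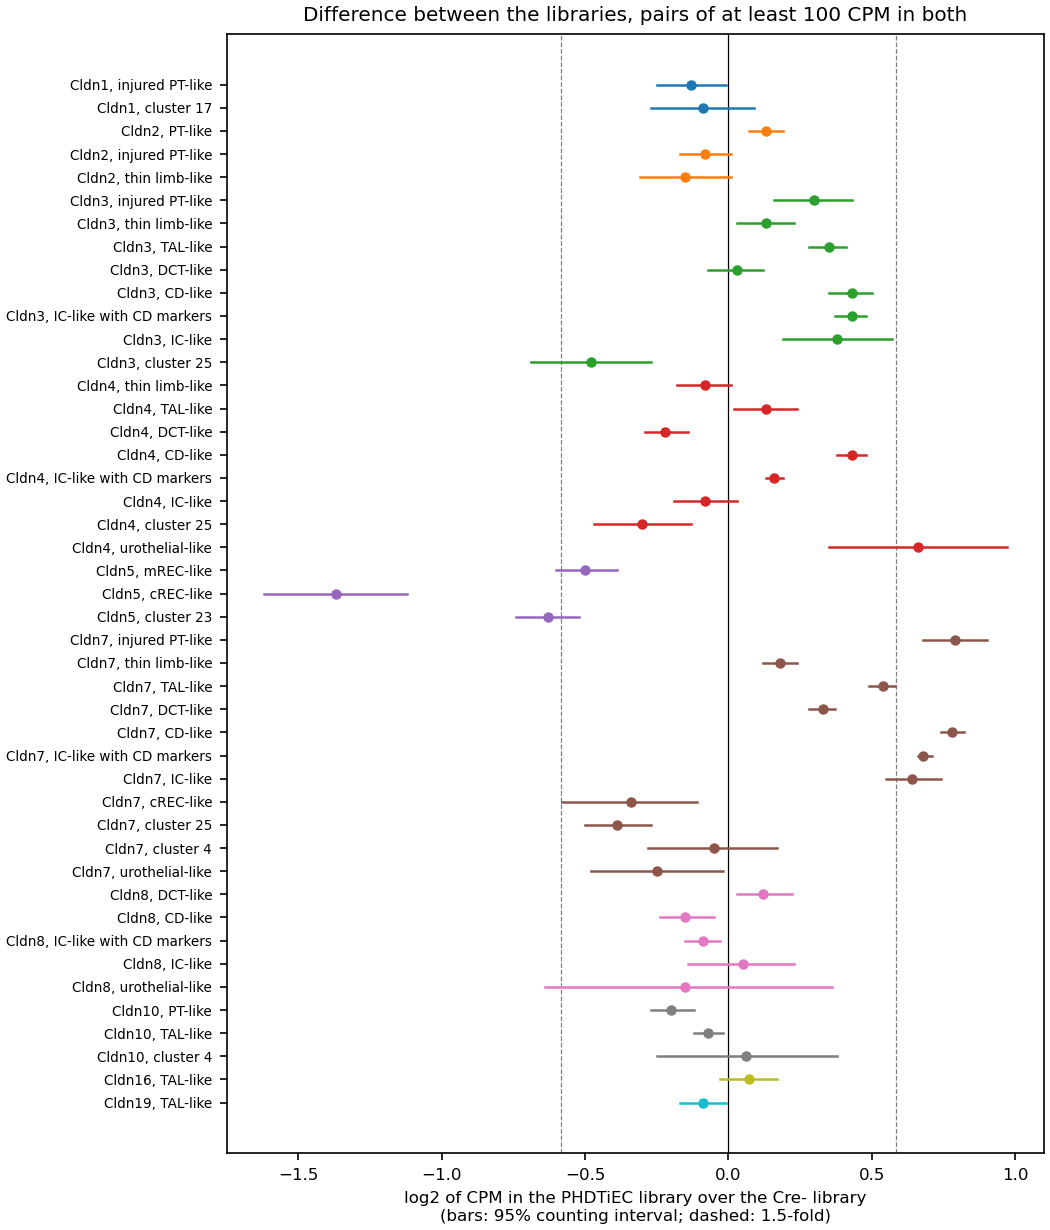
Log2 of the CPM in the PHDTiEC library over the CPM in the Cre- library for the 45 combinations of a member and a class with at least 100 CPM in both, with 95% counting intervals as bars and 1.5-fold as dashed lines; colours separate the genes. Cldn7 lies to the right in the distal classes (0.78 in CD-like cells), Cldn5 to the left in the endothelial groups (-1.37 in cREC-like cells), and Cldn2, Cldn8, Cldn16 and Cldn19 near 0.

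Cldn3 and Cldn4 share a locus on chromosome 5 and lie 39280 bases apart in opposite orientation, each with a single exon. Cldn3 (ENSMUSG00000070473, 134986214 to 134987472), a broadly expressed sealing claudin, was overlapped by Wbscr25 on the other strand. It stood at 340 and 456 CPM in CD-like cells (log2 ratio 0.43), at 275 and 369 CPM in IC-like cells with CD markers and at 280 and 357 CPM in TAL-like cells. Cldn4 (ENSMUSG00000047501, 134945119 to 134946934), which forms with Cldn8 the chloride pathway of the collecting duct, stood at 658 and 887 CPM in CD-like cells (0.43) and 872 and 975 CPM in IC-like cells with CD markers. In DCT-like cells it was at 410 and 353 CPM (-0.22), a direction that turned with 30 principal components (0.22) and with barcodes placed by their own markers (0.51). Neither gene passed 1.5-fold in the TAL-, DCT-, CD- or IC-like classes. Pou3f3, a transcription factor of the distal nephron, was most like Cldn3 (r = 0.964), and St14, a membrane protease, most like Cldn4 (r = 0.951).

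Cldn8 (ENSMUSG00000050520, chromosome 16, 88560828 to 88563183) was flat. It stood at 239 and 216 CPM in CD-like cells, 247 and 232 CPM in IC-like cells with CD markers, 219 and 227 CPM in IC-like cells and 215 and 234 CPM in DCT-like cells. These 4 classes thus carried nearly the same level, with log2 ratios between -0.15 and 0.12, while TAL-like cells held 75.2 and 74.7 CPM. Ap1m2, a subunit of the epithelial sorting adaptor, was the most similar gene (r = 0.975). In CD-like cells thinned to 3000 UMIs, Cldn4 and Cldn8 occurred together in 36.4% and 35.3% of cells, against products of their shares of 36.1% and 36.4%. The partners of the chloride pathway were therefore found in the same cells about as often as their separate shares give.

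Other claudins of the distal tubule were also higher in the library labelled PHDTiEC. Cldn6, an embryonic epithelial claudin, stood at 30.4 and 56.5 CPM in CD-like cells (0.89, 0.66 to 1.13), at 32.4 and 53.2 CPM in IC-like cells with CD markers and at 25.8 and 44.9 CPM in DCT-like cells, where 5.16% of all genes were higher by 1.5-fold. Cldn9, its neighbour 138 bases away on the opposite strand of chromosome 17, stood at 2.56 and 10.8 CPM in CD-like cells (2.08, 1.36 to 2.88). Cldn23 stood at 7.13 and 16.6 CPM there (1.22). These 3 were the junction genes higher by 1.5-fold in CD-like cells, out of 25 tested, and Mpdz, a junction scaffold, was the 1 lower (6.33 and 3.57 CPM; 3.43% of all genes were lower). Ocln, which encodes occludin, and Tjp3, a junction scaffold, passed 1.5-fold in none of the TAL-, DCT-, CD- and IC-like classes. In all, 377 combinations of a junction gene and a class were tested, with 35 higher and 18 lower. Over all genes in these classes, 5.2% of combinations were higher and 3.64% lower. In TAL-like cells, 2 of 29 junction genes were lower, Esam (12.5 and 6.77 CPM) and Cldn14, which restrains the Cldn16 and Cldn19 channel. The annotation places Gm49618 over Cldn14 on the same strand. Cldn14 had 207 UMIs in 37 of 400 Cre- cells and 18 UMIs in 15 of 410 PHDTiEC cells, or 18.1 and 1.42 CPM (log2 ratio -3.67, -4.45 to -2.98). The 1 cell with the most Cldn14 UMIs held 25.6% of them in the Cre- library, and the ratio stayed between -3.89 and -2.69 under the alternatives tried, the cell's removal included. Of all genes in TAL-like cells, 1.89% were lower by 1.5-fold. In injured PT-like cells, Prkci, a polarity kinase, stood at 17.5 and 32.6 CPM (0.90), and Ildr1, a tricellular junction protein, at 4.81 and 10.3 CPM.

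Among vessels, Cldn5 (ENSMUSG00000041378, chromosome 16, 18776847 to 18778262, 1 exon) was the endothelial member. It stood at 862 CPM (1534 UMIs) in Cre- and 611 CPM (1545 UMIs) in PHDTiEC mREC-like cells, a log2 ratio of -0.50 (-0.60 to -0.39). The cREC-like class takes the study's name for cortical endothelium, and its marker list here was of capillary genes such as Plvap. In cREC-like cells, Cldn5 stood at 307 and 119 CPM (-1.37, -1.62 to -1.12). In cluster 23, which holds endothelial together with mural markers, it stood at 743 and 480 CPM (-0.63, -0.74 to -0.52). Cldn5 was thus lower in the library labelled PHDTiEC in all 3 endothelial groups, and the cREC-like group differed most. The difference passed 1.5-fold in cREC-like cells and cluster 23, where 8.57% and 5.06% of all genes were lower by that size, and not in mREC-like cells, where 4.2% were. Fewer transcripts per cell and fewer cells of a Cldn5-rich kind cannot be told apart in these sums. Leaving out the barcodes with the highest doublet scores, the cluster 23 ratio was -0.32, under 1.5-fold.

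The endothelial marker list was higher beside the lower Cldn5 in 2 groups and lower in cluster 23. The median log2 ratio of 9 endothelial marker genes was 0.24 for mREC-like cells, 0.53 for the cREC-like group and -0.21 for cluster 23, where the median over all genes was 0.0. Cldn15, a second claudin of these cells, stood at 137 and 148 CPM in the mREC-like group, 78.6 and 81.3 CPM in the cREC-like group and 109 and 104 CPM in cluster 23. Of the junction genes, Magi1, a scaffold, was lower in mREC-like cells (43.8 and 28.5 CPM) and Tjp1, which encodes zonula occludens 1, in cluster 23 (230 and 153 CPM), where Jam2 and Esam, adhesion molecules of endothelial junctions, stood at 593 and 445 CPM and at 415 and 313 CPM, under 1.5-fold. In the cREC-like group, 4 of 17 junction genes were lower, namely Crb3 (54.6 and 30.2 CPM), Lsr (34.2 and 15.7 CPM), Ildr1 (24 and 7.87 CPM) and Ildr2 (22.2 and 13.8 CPM), and 2 were higher, Magi3 (27 and 42 CPM) and Mpdz (26.4 and 41.3 CPM), where 7.72% of all genes were higher. Tubular markers also moved in these groups. The summed tubular lists of 52 genes, of which 4 and 5 were at 0 in cREC-like cells, stood at 5915 CPM in Cre- and 2608 CPM in PHDTiEC cREC-like cells, at 525 and 357 CPM in mREC-like cells and at 738 and 1230 CPM in cluster 23. In cREC-like cells the lower sum came from the TAL list (3241 and 1105 CPM) and the DCT list (2135 and 711 CPM), while the PT list (86.4 and 125 CPM), the CD list (281 and 404 CPM) and the IC list (171 and 262 CPM) were higher. Of the 7 tubular members tested there, Cldn3, Cldn8, Cldn10, Cldn16 and Cldn19 were lower by 1.5-fold, Cldn10 at 130 and 37.4 CPM. Cldn7 stood at 212 and 167 CPM, and Cldn4 at 92.4 and 128 CPM. The part of this load in the Cldn5 values was not tested.

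Cldn5 marked some endothelial cells and not others. In mREC-like cells thinned to 10000 UMIs, 35 of 67 Cre- cells and 54 of 98 PHDTiEC cells held no Cldn5 UMI, at means of 7.3 and 6.06 UMIs, and up to 48 and 44 UMIs were found in a cell. Thinned to 2000 UMIs, a Cldn5 UMI was found in 42.7% (35 to 50.6) of 164 Cre- cells and 33.2% (27 to 39.8) of 220 PHDTiEC cells. The cells with Cldn5 held 4.27 (3.8 to 4.78) and 3.95 (3.5 to 4.43) UMIs each. In cREC-like cells the share was 25.6% and 17.8%, with 2.83 and 2.1 UMIs in the cells with Cldn5, and in cluster 23 it was 51.6% and 46%, with 3.15 and 2.46 UMIs. The share intervals of the libraries overlapped in each group. In B-like cells, 0 of 70 and 1 of 49 cells held a Cldn5 UMI.

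Some genes of arterial and descending vessels went with Cldn5, and others did not. In mREC-like cells with a Cldn5 UMI, Aqp1, the water channel of descending vasa recta, stood at 857 CPM (Cre-) and 2240 CPM (PHDTiEC), against 53.2 and 88.4 CPM in the cells without. Gja4, an arterial gap junction gene, stood at 529 and 678 CPM with Cldn5 and at 186 and 136 CPM without. Slc14a1, the urea transporter of descending vasa recta, stood at 64.3 and 123 CPM with Cldn5 and at 0 and 10.2 CPM without. Igfbp3 was lower with Cldn5, at 279 and 445 CPM against 1234 and 1609 CPM. The order was the same in both libraries for these 4 genes. Sox17, an arterial marker, was not higher with Cldn5, at 950 and 842 CPM against 1207 and 932 CPM without. Edn1 went opposite ways, at 179 CPM with and 287 CPM without in the Cre- library and at 726 and 401 CPM in the other. The cREC-like group differed for Gja4, at 117 CPM with and 28.7 CPM without in the Cre- library and at 34.5 and 63.4 CPM in the other. In cREC-like cells, Plvap, the diaphragm protein of fenestrated capillaries, stood at 883 and 1724 CPM with Cldn5 and 2345 and 2358 CPM without, and Aqp1 in the Cldn5 cells stood at 317 CPM in the Cre- library and 34.5 CPM in the other. Tcf15, an endothelial transcription factor, was the gene most like Cldn5 over the 54 sums (r = 0.971), but within mREC-like cells it stood at 14.3 and 6.85 CPM with Cldn5 and at 112 and 71.4 CPM without.

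Cldn5 was also described by HIF-responsive transcripts. Cells thinned to 2000 UMIs were split by whether they held a UMI of Adm, Ankrd37, Pgf, Ndufa4l2 or Egln3, 5 genes known to respond to HIF. The split was made after the data were seen, and the library itself decides its sizes, with 83 PHDTiEC against 12 Cre- mREC-like cells holding such a UMI. In PHDTiEC mREC-like cells, Cldn5 stood at 289 CPM (213 to 383) in 83 cells with such a UMI and at 887 CPM (779 to 1006) in 137 cells without. Cre- mREC-like cells without one, 152 cells, stood at 964 CPM (857 to 1081), an interval that overlapped the latter. In cluster 23 of the library labelled PHDTiEC, Cldn5 stood at 337 CPM (232 to 473) with and 680 CPM (544 to 838) without, while Cre- cells of this cluster did not differ, at 783 CPM (576 to 1042) in 30 cells with and 787 CPM (637 to 961) in 61 cells without. PHDTiEC cREC-like cells showed no such difference, at 146 CPM (79.7 to 245) with and 165 CPM (117 to 227) without, and Cre- cells without one stood at 276 CPM (207 to 361), an interval that overlapped both. The 21 Cre- cREC-like cells with one stood at 643 CPM (424 to 935). Cdh5, the vascular cadherin, stood at 554 CPM with and 675 CPM without in PHDTiEC mREC-like cells, and Pecam1 at 898 and 781 CPM. In Cre- cells the split left 12 mREC-like cells with a UMI of the 5 genes, at 625 CPM (350 to 1031) of Cldn5. The split also follows the kind of vessel cell described above. In PHDTiEC mREC-like cells, Pgf stood at 231 CPM without and 27.4 CPM with a Cldn5 UMI, and Egln3 at 214 and 34.2 CPM, so they lay more in the cells with much Igfbp3 and little Aqp1. The kind of vessel cell and the HIF-responsive transcripts cannot be told apart here.

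**Figure D4:**
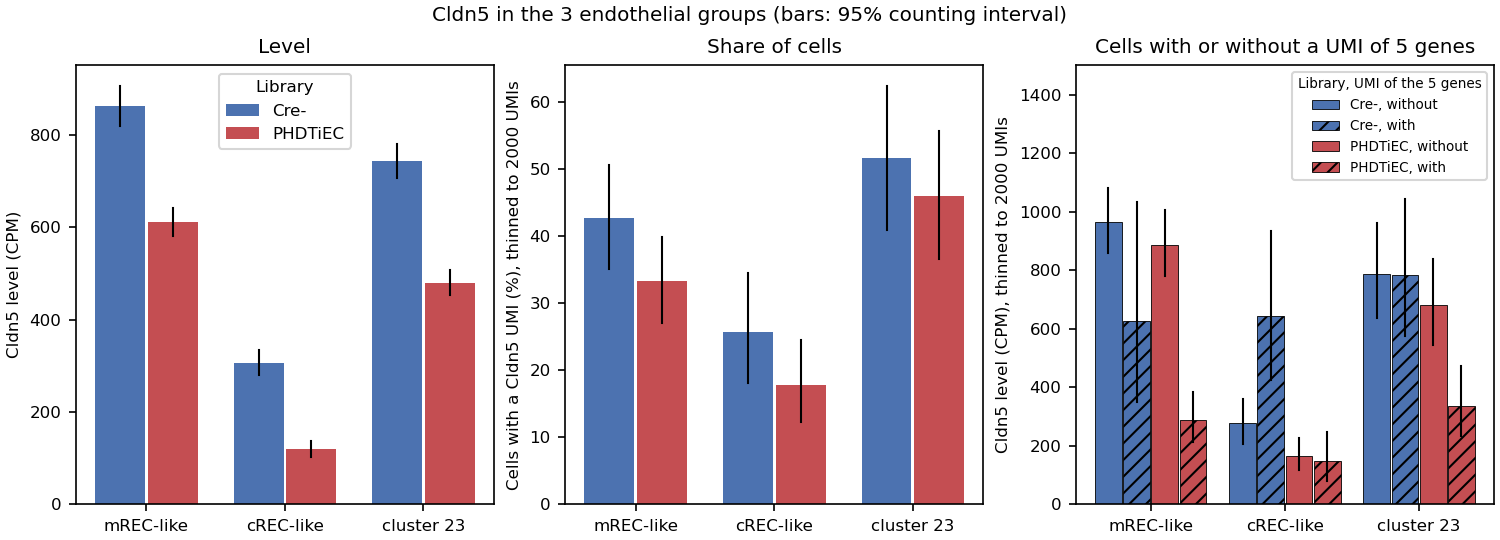
Cldn5 in the 3 endothelial groups: level in CPM (left), percent of cells with a Cldn5 UMI after thinning to 2000 UMIs (middle), and CPM in cells with or without a UMI of 5 HIF-responsive genes (right, hatched with, where the Cre- bars rest on 12, 21 and 30 cells); blue Cre-, red PHDTiEC, thin bars 95% counting intervals. The red bars are lower at left in all 3 groups, and the hatched red mREC-like bar (289 CPM) is below both unhatched ones (964 and 887 CPM), while in cluster 23 the hatched and plain Cre- bars are alike (783 and 787 CPM).

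Tubular claudins were also counted in stromal classes and in the unnamed cluster 17, in part beside a change in tubular marker load. In pericyte-like cells, 5 of 6 tested members were 1.5-fold higher in the library labelled PHDTiEC (13.4% of all genes were), Cldn7 among them at 82.6 and 274 CPM with 55.7% of the Cre- UMIs in 1 cell, and the tubular lists stood at 2104 and 4195 CPM. In cluster 17, 4 of 7 were higher (all genes 6.1%), with tubular lists at 419 and 1233 CPM. In fibroblast-like cells, 5 of 7 were higher (all genes 9.51%), Cldn7 at 43.2 and 93.1 CPM, while the tubular lists stood at 617 and 555 CPM in sum. In that sum, the TAL list (67.7 and 113 CPM) and the CD list (111 and 133 CPM) were higher. The DCT list (309 and 199 CPM) and the IC list (57.1 and 38.7 CPM) were lower, and the PT list stood at 72 and 71.2 CPM. Barcodes with the highest doublet scores made up 6.33% and 15.7% of these cells. The part of the tubular load in the claudin values was not tested.

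Cldn1 stood apart from this in dendritic-like cells. These held 98 (Cre-) and 88 (PHDTiEC) Cldn1 UMIs, or 46.1 and 33.4 CPM (log2 ratio -0.47). The direction turned, to 0.36, when each barcode was placed by its own markers. Scaling the Cldn1 to Cldn7 ratio of barcodes under 100 UMIs by the Cldn7 UMIs of these cells would give 1.16 and 1.89. Cells with a UMI of Xcr1, the chemokine receptor of cross-presenting dendritic cells, carried 86.7 CPM (68.4 to 108) and 59.7 CPM (46.7 to 75.4) of Cldn1. Cells without one carried 17 CPM (10.5 to 26) and 11.7 CPM (6.84 to 18.8). Cells with a UMI of Cd209a, a lectin of another dendritic subset, carried 4.9 and 6.67 CPM. In macrophage-like cells, 9 Cldn1 UMIs were found in the Cre- library, where 7.15 would follow from the same ratio. Neutrophil-like cells also held Cldn1, with 21 and 25 UMIs in 18 of 627 and 21 of 662 cells, beside 25 and 27 Cldn7 UMIs. Barcodes under 100 UMIs held 126 Cldn1 UMIs beside 1198 of Cldn7 in the Cre- library and 150 beside 2140 in the other.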

How the data were processed

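Single-cell suspensions of 2 postischemic kidneys were run on the 10x Chromium 3′ kit v3.1. The authors aligned the reads to mm10 and deposited raw counts of UMIs for every gene in every barcode, and the file headers name Cell Ranger 4. Here, barcodes with 500 to 100000 UMIs, at least 200 genes and at most 50% mitochondrial UMIs were kept, 8548 and 9309 of 9636 and 9948 barcodes with at least 500 UMIs; the complexity limit of the study was an alternative and left 8468 and 9233. Deposited totals were 136004367 and 146758812 UMIs. Both libraries were clustered together in Seurat 5.3.0 (1987 variable genes after removal of 13 claudins, 20 principal components, resolution 0.8), and clusters were named from marker lists. Counts were summed per class and library and divided by the class total. Ratios were computed for genes with at least 50 UMIs in classes of at least 20 cells per library, and 1.5-fold was a fixed size, not a test. Exact Poisson, Clopper-Pearson and binomial intervals cover counting error only, and were tested on simulated counts. Shares of cells were computed after random thinning to 3000, 2000 or 10000 UMIs, leaving out shallower cells. Doublet scores came from scanpy 1.11.5, whose automatic limit marked 0 barcodes and so had not worked; the highest-scoring 5.97% and 5.69% were removed as an alternative. TMM came from edgeR 4.0.16. Coordinates came from GENCODE vM21 (GRCm38) and promoters from RefSeq. Members, junction list and marker lists were chosen with earlier results of these data known. Named were all members, the floxed genes and, per member, the non-claudin gene with the highest Pearson r of log2(CPM + 10) over 54 class and library sums. Of the junction genes past 1.5-fold, only a part was named, and not in every class where they passed. The companion genes in split TAL-like and endothelial cells, and Tmem207, were chosen after their values were seen, as were the genes that split dendritic-like cells, the 5 HIF-responsive genes and the thinning to 2000 and 10000 UMIs.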

Additional observations from a re-analysis of the deposited data

How the results depend on the processing

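No paired analysis was possible because each genotype has 1 library, and no replicate could be left out. Under the alternatives, 252 values of comparisons moved by less than their counting interval (or a count by less than 1.5 times) and 69 moved by more. Of the values for other single genes, 199 stayed and 26 moved, among which the direction turned for Cldn1 in dendritic-like cells (0.36 by own markers), Cldn4 in DCT-like cells (0.51 by own markers, 0.22 with 30 principal components) and in IC-like cells (0.03 by own markers), and Cldn2 in injured PT-like cells (0.04 at resolution 1.2). All values are log2 ratios unless named. With each barcode placed by its own markers, TAL-like values were 0.18 for Cldn10, 0.24 for Cldn16, 0.05 for Cldn19, -2.75 for Cldn14 and 0.63 for Cldn7, and Cldn7 stood at 0.66 in CD-like, 1.03 in DCT-like, 0.5 in injured PT-like and 0.4 in thin limb-like cells. With cells weighing equally, TAL-like values were -0.15 for Cldn10, -0.06 for Cldn16, -0.21 for Cldn19 and -2.69 for Cldn14, Cldn2 in PT-like cells was 0.22, Cldn5 was -0.92 in cREC-like and -0.32 in mREC-like cells, and Cldn7 was 0.39 in DCT-like, 0.51 in IC-like and 0.31 in thin limb-like cells. TMM scaling gave -0.17 for Cldn10, -0.19 for Cldn19 and 0.44 for Cldn7 in TAL-like cells, 0.13 for Cldn4 and 0.65 for Cldn7 in IC-like cells with CD markers, and 0.72 and 0.22 for Cldn7 in CD-like and DCT-like cells. CPM without mitochondrial genes, Gm42418 and Gm26917 gave 0.13 and 0.65 for the same pair in IC-like cells with CD markers, and 0.72 and 0.26 for Cldn7 in CD-like and DCT-like cells. A mitochondrial limit of 20% gave 0.72 and 0.24 for those. The complexity limit gave -0.14 for Cldn10 in TAL-like cells. Resolution 0.4 gave 0.16 for Cldn1 in cluster 17, 0.26 for Cldn3 and 0.57 for Cldn7 in CD-like cells, 0.71 for Cldn7 in IC-like cells with CD markers and -0.45 for Cldn5 in cluster 23. Resolution 1.2 gave -0.45 for Cldn5 in cluster 23 and 0.61 for Cldn7 in injured PT-like cells. With 30 principal components Cldn5 was -1.03 in the cREC-like group and -0.37 for cluster 23, and Cldn7 was 0.54 in DCT-like, 0.52 in IC-like and 0.63 in injured PT-like cells. With claudins kept in the clustering Cldn5 was -1.11 and -0.45 in the cREC-like group and cluster 23. Removal of barcodes with high doublet scores gave -0.32 for Cldn5 in cluster 23. Counts of member combinations higher were 20 without those barcodes, 21 at resolution 0.4, 19 by own markers, 70 at a minimum of 1 UMI, 10 at 200 UMIs and 5 at 100 CPM in both libraries. Counts lower were 14 by own markers, 64 at 1 UMI, 10 at 200 UMIs and 2 at 100 CPM. Junction combinations higher were 197 at 1 UMI and 7 at 200 UMIs, and lower 11 without high doublet scores, 11 by own markers, 32 with equal weights, 164 at 1 UMI and 3 at 200 UMIs. TAL-like cells with Cldn10 and Cldn16 or Cldn19 were 61.0% and 60.5% at 6000 UMIs and 77.8% and 75.6% without thinning. The cause of these shifts was not tested.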
